A study of Mus musculus with 8 samples.

Results

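The genes described here are 10 markers and products of enteroendocrine cells, the scattered hormone-secreting cells of the gut epithelium: the granins Chga and Chgb and the peptide hormone genes Cck, Gip, Sct, Gcg, Nts, Pyy, Sst and Ghrl. They were chosen by symbol, and all 10 were found among the 52195 genes of the deposited table. Polyadenylated RNA was measured in kidney, lung, liver and small intestine of mice of the inbred strain C57BL/6 (male C57BL/6J by the methods), aged 6 to 10 weeks. No treatment is named, and all 8 libraries share strain, sex and age range. Each tissue had 2 libraries. The paper says that the libraries of a tissue come from separate mice. All 4 tissues were taken from each animal, so libraries of different tissues can share a mouse, and which ones do is not stated. For each library the excised tissue was ground, so that epithelium, muscle, nerve and attached tissue entered the RNA together. Neither the labels nor the methods say which stretch of the small intestine was taken.

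Enteroendocrine cells release peptides in response to food, acid and bile. Each peptide is cut from a prohormone inside dense granules that also hold chromogranins, and the mix of peptides changes along the gut: in general gastrin and ghrelin are made mostly in the stomach, gastric inhibitory polypeptide, secretin and cholecystokinin mostly in the upper small intestine, and neurotensin, the glucagon-like peptides and peptide YY increasingly towards the ileum and colon. Islet cells of the pancreas use the same genes for glucagon, somatostatin and some peptide YY, which is why islet genes are given beside them below.

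Values are fragments per kilobase of transcript, normalised by library size (FPKM). The depth recovered from the values was 9360895 and 11323540 reads in small intestine replicates 1 and 2, and between 9164156 and 21444661 in the other 6 libraries. A count of 3 reads, taken as the limit of what this depth can show, corresponded for a gene with 1 kb of exons to 0.320 FPKM in small intestine replicate 1 and 0.265 in replicate 2. Tissues were compared by limma on log2(FPKM + 1), 1 tissue at a time against the mean of the remaining 3. The call for a higher level was made at a Benjamini-Hochberg adjusted p under 0.05 with a log2 difference over 1. The 2 small intestine libraries differed in some listed genes before any hormone is considered. Replicate 1 held stomach transcripts that replicate 2 lacked, with Gkn2 at 66.7 against 0 FPKM. Replicate 2 held the ileal gene Fabp6 at 25.4 against 0.223 FPKM in replicate 1. Both held transcripts of pancreatic acinar cells, with a summed FPKM of 3366 in replicate 1 and 1520 in replicate 2 over 10 genes, against at most 6.16 in any other library. Values of both libraries are therefore given separately throughout.

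All 10 hormone genes were higher in both small intestine libraries than in each of the 6 others, as were 10.1% of the 30154 genes above 0 in any library and 12.8% of the 16328 that passed the filter on low values. Of the 10, 9 passed that filter (an FPKM of at least 1 in at least 2 libraries), and all 9 were called higher in small intestine by limma, beside 13.7% of the 16328 genes tested. These 9 could pass, apart from Cck, only through the small intestine and, for Nts, 1 lung library, so the count is a description of where they were detected. Their median log2 difference was 4.56, against -0.01 over all genes tested. None was called higher in kidney (8.65% of genes tested were), in lung (40.7%) or in liver (6.56%). With either small intestine library left out, and the same genes kept in the fit, all 9 were still called. With the filter applied again to the 7 libraries left, Cck and Nts were the 2 members tested and both were called. The exact permutation test, two-sided over the 28 ways to choose 2 of 8 libraries, gave p = 0.0357 for each of the 10 genes, the smallest it can give, and adds nothing to the separation of the libraries just described. In whole tissue, fewer cells of a type and less RNA per cell cannot be told apart.

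**Figure D1:**
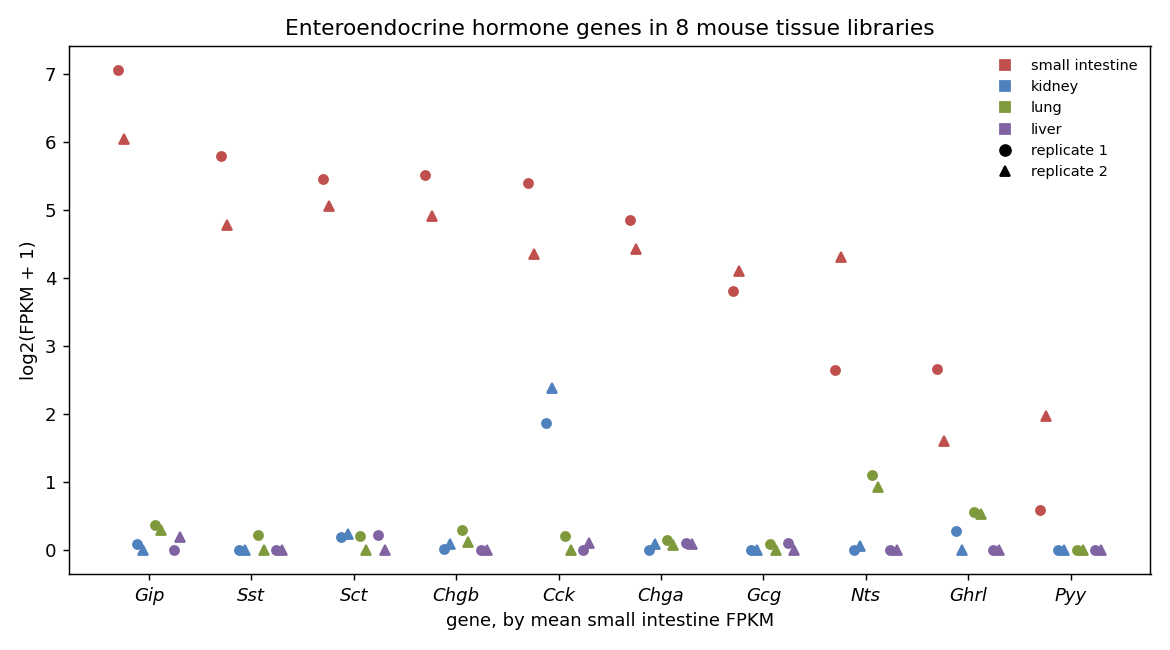
Level of each hormone gene in every library as log2(FPKM + 1), with colours for tissues, circles for replicate 1 and triangles for replicate 2. For each gene both small intestine points lie above all 6 others, Cck has kidney values of 2.64 and 4.25 FPKM, and Nts and Pyy are the genes with the widest gaps in which replicate 2 is the higher.

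The granins were read first, since they are used to mark enteroendocrine cells as a class. Whether islet or nerve cells in the ground tissue added to them was not tested. Chga, chromogranin A, stood at 28.02 and 20.6 FPKM in small intestine (723 and 643 reads), and between 0 and 0.111 in the other 6 libraries, where no library had more than 3 reads. Its log2 difference was 4.56 (SE 0.15, limma adjusted p = 4.08e-07). Chgb, chromogranin B, had 44.6 and 29.1 FPKM in small intestine (1144 and 904 reads) and at most 0.224 FPKM elsewhere, in lung replicate 1 (6 reads), with a log2 difference of 5.12 (SE 0.18, limma adjusted p = 5.80e-07). Neither granin overlapped between small intestine and the other tissues. Chga lies on chromosome 12 at 102554969-102565028 and Chgb on chromosome 2 at 132781278-132795079 (GRCm38, both on the plus strand).

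The hormones usually placed in the upper small intestine held the largest part of the summed FPKM, with Gip, Sct and Cck at 55.5% together and the granins at 20.3%. By reads the granins held 45.9% and these 3 hormones 35.2%. Gip, which encodes gastric inhibitory polypeptide, an incretin that raises insulin release after a meal, reached 132.6 and 65.4 FPKM in the 2 small intestine libraries (853 and 509 reads). In kidney it had 0.0679 and 0. The lung values were 0.298 and 0.234, and liver had 0 and 0.141, each from at most 2 reads. The lower small intestine value was 219-fold the highest value elsewhere, and the log2 difference was 6.40 (SE 0.25, limma adjusted p = 9.74e-07). Gip lies on chromosome 11 at 96024545-96030831 (GRCm38, plus strand).

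Sct, which encodes secretin, the hormone that makes the pancreas release bicarbonate, had 42.9 and 32.4 FPKM in small intestine (259 and 237 reads) and at most 0.179 elsewhere. Its log2 difference was 5.11 (SE 0.16, limma adjusted p = 3.86e-07). It lies on chromosome 7 at 141278330-141279133 (minus strand).

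Cck, which encodes cholecystokinin, the peptide that empties the gallbladder and drives pancreatic enzyme secretion, was the member with the clearest signal outside the gut. It had 41.1 and 19.4 FPKM in small intestine (502 and 287 reads), while kidney stood at 2.64 and 4.25 (74 and 96 reads). Lung had 0.157 and 0, and liver 0 and 0.0742. The groups did not overlap, but the highest kidney value was 14.0% of the small intestine mean, while for Gip, Sst, Sct, Chgb, Chga and Gcg the highest value elsewhere was between 0.301% and 0.608% of it. For Ghrl and Nts, both with reads in lung, it was 12.8% and 9.49%. The log2 difference of small intestine from the other tissues was 4.11 (SE 0.28, limma adjusted p = 1.49e-05). The kidney values of Cck gave a log2 difference of 0.45 from the mean of the other 3 tissues (SE 0.28, limma adjusted p = 0.206), a mean that includes the small intestine. Cck lies on chromosome 9 at 121489824-121495694 (minus strand).

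Sst encodes somatostatin, a paracrine inhibitor of the other gut hormones and of gastric acid, made by D cells of gut and islet and by some neurons. It had 54.8 and 26.5 FPKM in small intestine (307 and 180 reads). Elsewhere 1 read in lung replicate 1 was all that was found, an FPKM of 0.171. The log2 difference was 5.25 (SE 0.25, limma adjusted p = 2.44e-06). Sst lies on chromosome 16 at 23889573-23890958 (minus strand).

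The hormones usually placed towards the ileum were lower on average, and 3 of them were the only members higher in replicate 2. Gcg, the proglucagon gene, whose product is cut to glucagon-like peptides in the gut and to glucagon in the islet, had 13.1 and 16.2 FPKM in small intestine (183 and 274 reads). It was at 0 in 4 of the other 6 libraries and had 1 read in each of lung replicate 1 and liver replicate 1. Its log2 difference was 3.93 (SE 0.12, limma adjusted p = 3.86e-07). Gcg lies on chromosome 2 at 62474530-62483650 (minus strand).

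Nts, the gene of neurotensin, which slows gut motility and aids fat uptake, had 5.31 and 18.9 FPKM in small intestine (62 and 267 reads). In lung it had 1.15 and 0.903 (14 reads in each library), in kidney 0 and 0.0463, and it was at 0 in both liver libraries. The lower small intestine value was 4.62-fold the highest lung value. The log2 difference of small intestine was 3.14 (SE 0.37, limma adjusted p = 0.000261), the widest error of the 9 genes tested. Nts lies on chromosome 10 at 102481756-102490486 (minus strand).

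Pyy, the gene of peptide YY, an appetite-lowering peptide of L cells, was the lowest member. It had 0.508 and 2.94 FPKM in small intestine from 3 and 21 reads, and no read in any other library. Because 1 library alone reached an FPKM of 1, Pyy failed the filter, and its values from the fit without that filter were a log2 difference of 1.29 (SE 0.33, limma adjusted p = 0.0290 over 30154 genes). Pyy lies on chromosome 11 at 102106676-102107832 (minus strand). The count of 3 reads in replicate 1 lies at the limit of what was detectable.

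Ghrl, the gene of the appetite-raising hormone ghrelin, had 5.35 and 2.05 FPKM in small intestine (54 and 25 reads). It had 0.475 and 0.447 in lung (5 and 6 reads), 0.216 and 0 in kidney (5 and 0 reads), and 0 in both liver libraries. The log2 difference was 1.91 (SE 0.25, limma adjusted p = 0.000444), the smallest of the 9. Ghrl lies on chromosome 6 at 113716119-113719880 (minus strand), and 15.9% of its exon length is shared with Gm26982 and Gm44033 on the opposite strand, whose reads cannot be told apart from its own unless strand was used in counting. The genes of the other 9 members share no exon with another gene.

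Short stretches of the region before the transcription start are shown for the 7 members in which a core promoter element or a cyclic AMP response motif was found, because these genes were detected together in 1 tissue. They were read from the RefSeq promoter table (build GRCm38.p6), in which all 10 members matched, 5′ to 3′ on the strand of the gene, and the capitals mark the motif.
Gip: gtggtgcctggaTATAAggacaccaagaca
Sct: ggtcccggcagcTATAAagcggtggcgcgg
Gcg: gcctggagagcaTATAAaagcacagcaccc
Pyy: ttccaagtgggaTATAAgccccgcagggaa
Sst: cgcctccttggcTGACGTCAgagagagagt
Chgb: ggggctgctccgTGACGTCAgggctgagcg
Chga: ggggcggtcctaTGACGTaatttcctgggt

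The stretches lie at chr11:96024508-96024537 (Gip), chr7:141279144-141279173 (Sct), chr2:62483660-62483689 (Gcg), chr11:102107842-102107871 (Pyy), chr16:23890875-23890904 (Sst), chr2:132781558-132781587 (Chgb) and chr12:102554885-102554914 (Chga). The letters TATAA, searched on both strands of the 120 bases before each start, were present in 4 of the 10 members and in 11.8% of 32851 promoters of the same length. The match nearest the start began 25, 28, 24 and 27 bases before the start of Gip, Sct, Gcg and Pyy (for Pyy, the upper of 2 starts), and Gip held another at position -113 and Gcg another on the opposite strand at position -71, counted from the start. TGACGT was present in 3 members, 44 bases before the start in Chga, 48 in Sst and 72 in Chgb, and in 4.55% of all promoters. The longer TGACGTCA, which contains TGACGT, was present in Sst and Chgb and in 1.24% of all promoters. CAGATG was found in Cck and Gcg (7.05% of promoters) and AGATAA in Gip (4.36%). Neither Nts nor Ghrl held any of the 5. A match is a description of the letters in this window only. The stretches of Sst and Chgb lie inside the annotated gene of GENCODE M21, which begins further upstream than the RefSeq start.

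The order of the mean levels in small intestine, per length, was led by Gip at 99.03 ± 47.5 FPKM (SD, n = 2). Sst followed at 40.6 ± 19.95, Sct at 37.7 ± 7.39, Chgb at 36.9 ± 10.9, Cck at 30.3 ± 15.3 and Chga at 24.3 ± 5.25. Gcg had 14.6 ± 2.20, Nts 12.1 ± 9.61, Ghrl 3.70 ± 2.33 and Pyy 1.72 ± 1.72. Among neighbours in this order, only Gip over Sst and Chga over Gcg had ranges that did not overlap, and the other neighbours did not differ beyond their spread. Gip was the highest member in both libraries, while Sst ranked 2 in replicate 1 and 4 in replicate 2.

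Gip made up 36.02% of the summed FPKM of the 10 genes in the first small intestine library and 28.003% in the second, or 32.9% of the mean. Among the 8 peptide hormones alone its share was 41.3%, followed by Sst at 17.0%, Sct at 15.7% and Cck at 12.6%. Counted in reads, which favours long transcripts, Chgb held the largest share at 27.5%, Chga 18.4% and Gip 18.03%. The share of Nts by FPKM was 1.44% in replicate 1 and 8.09% in replicate 2. The summed FPKM of the 10 genes was 368 and 234 in small intestine. It was 3.09 and 4.60 in kidney. Lung had 2.81 and 1.73, and liver 0.321 and 0.285.

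**Figure D2:**
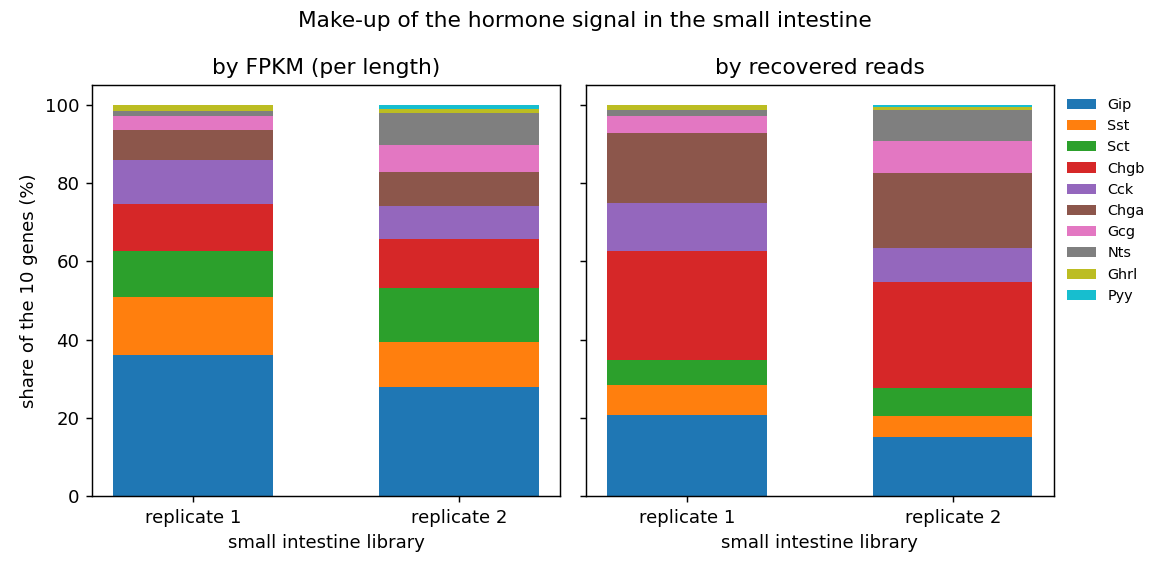
Share of each hormone gene in the total of the 10 genes, in percent, for the 2 small intestine libraries, by FPKM on the left and by recovered reads on the right. Gip is the largest part by FPKM (36.02% and 28.003%) and Chgb by reads, and the parts of Gcg and Nts are larger in replicate 2.

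The hormones did not differ between the 2 small intestine libraries in 1 common direction. Replicate 2 had 5.79 times the Pyy of replicate 1 (95% counting interval 1.73 to 30.3), 3.56 times the Nts (2.69 to 4.77) and 1.24 times the Gcg (1.02 to 1.501). The other 7 members were lower in replicate 2. Their ratios were 0.756 for Sct, 0.735 for Chga, 0.653 for Chgb, 0.493 for Gip (0.441 to 0.551), 0.485 for Sst (0.401 to 0.585), 0.473 for Cck (0.407 to 0.547) and 0.383 for Ghrl (0.228 to 0.626). Over the 12473 genes with at least 50 reads over the 2 libraries together the median ratio was 0.964, with 1.81% of genes at or under 0.5 and 1.84% at or over 2. These intervals are exact binomial ones, and like the floors they cover counting error only, not the spread between mice. With 2 libraries no test of these differences is possible. The side of 1 on which each ratio lay did not change under the other scalings tried.

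Genes known for their place along the gut were read beside these ratios. Of the 8 listed upper small intestine genes, Pdx1, a homeobox factor of duodenum and pancreas, had 4.85 and 1.76 FPKM in the 2 libraries (ratio 0.363, 0.247 to 0.524). Tmprss15, the duodenal enteropeptidase that activates trypsinogen, had 13.0 and 8.95, and Slc40a1, the iron exporter ferroportin, 7.54 and 4.75. Gata4, a factor of the upper gut that is lost in the ileum, had 25.6 and 25.2, and Lct, lactase, 127 and 131. Onecut2 had 5.07 and 3.87, beside 3.85 and 3.54 in liver. The other members, Cybrd1 and Trpv6, were low in small intestine, at 0.680 and 0.463 and at 0.434 and 0.269 FPKM. Both were called higher in lung, where Cybrd1 had 1.496 and 1.81 FPKM and Trpv6 1.64 and 1.23. All but Lct of the 8 had a ratio under 1, but so did the median gene, at 0.964. Gata4, at 0.984 (0.901 to 1.07), was not under that median. The intervals of Cybrd1 (0.398 to 1.16) and Trpv6 (0.268 to 1.397) included 1. Those of Pdx1, Tmprss15, Slc40a1 and Onecut2 lay wholly under the median. Of the 8, 5 were called higher in small intestine (background 13.7%), or 4 against the next highest tissue alone.

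The 6 listed distal genes all had a ratio over 1, beside a median of 0.964 over all genes with at least 50 reads. Fabp6, the ileal bile acid binding protein, had 0.223 and 25.4 FPKM (1 and 138 reads), a ratio of 114 with a counting interval of 20.1 to 4538. The 1 read of Fabp6 in replicate 1 is under the limit of 3 reads, so the size of this ratio is uncertain. Slc10a2, the ileal bile acid transporter, had 0.309 and 1.62, and Osr2, a transcription factor, 2.45 and 10.4 (ratio 4.26, 3.36 to 5.46). Fgf15, the bile acid-induced hormone of the ileum, had no read in replicate 1 and 19 reads in replicate 2 (0.549 FPKM), at least 5.24-fold higher against a floor of 3 reads in replicate 1. Cubn and Amn, partners in vitamin B12 uptake, had ratios of 1.63 and 1.23. Of the 4 distal genes tested, 3 were called higher in small intestine against the mean of the other tissues (background 13.7%), but 1 against the next highest tissue alone. Kidney had 14.7 and 5.90 FPKM of Cubn, beside 5.20 and 8.50 in small intestine, and 50.7 and 48.6 of Amn, beside 49.1 and 60.3. Slc10a2, with 16.9 and 9.46 FPKM in kidney, was called lower in small intestine.

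Stomach and colon genes were read in the same way. Of the stomach list, Gkn1 had 30.6 and 0 FPKM (358 and 0 reads), Gkn2 66.7 and 0 (492 and 0 reads) and Pgc, pepsinogen C, 22.7 and 0.445. Against a floor of 3 reads in replicate 2, Gkn1 was at least 144-fold and Gkn2 at least 198-fold higher in replicate 1. Gast, the gene of gastrin, had 6 reads in replicate 1 (1.39 FPKM) and none in replicate 2. The parietal cell gene Atp4b was at 0 in both libraries and Atp4a was at 0.0852 and 0.141 FPKM. Their part in the Ghrl, Sst and Gip values of replicate 1 was not tested. Of the large intestine list, Insl5, a peptide of colonic L cells given in another list, and Hoxd13 and Hoxb13 were at 0 in both libraries, while Slc26a3 had 25.5 and 26.8 FPKM and Aqp8 43.0 and 13.3.

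**Figure D3:**
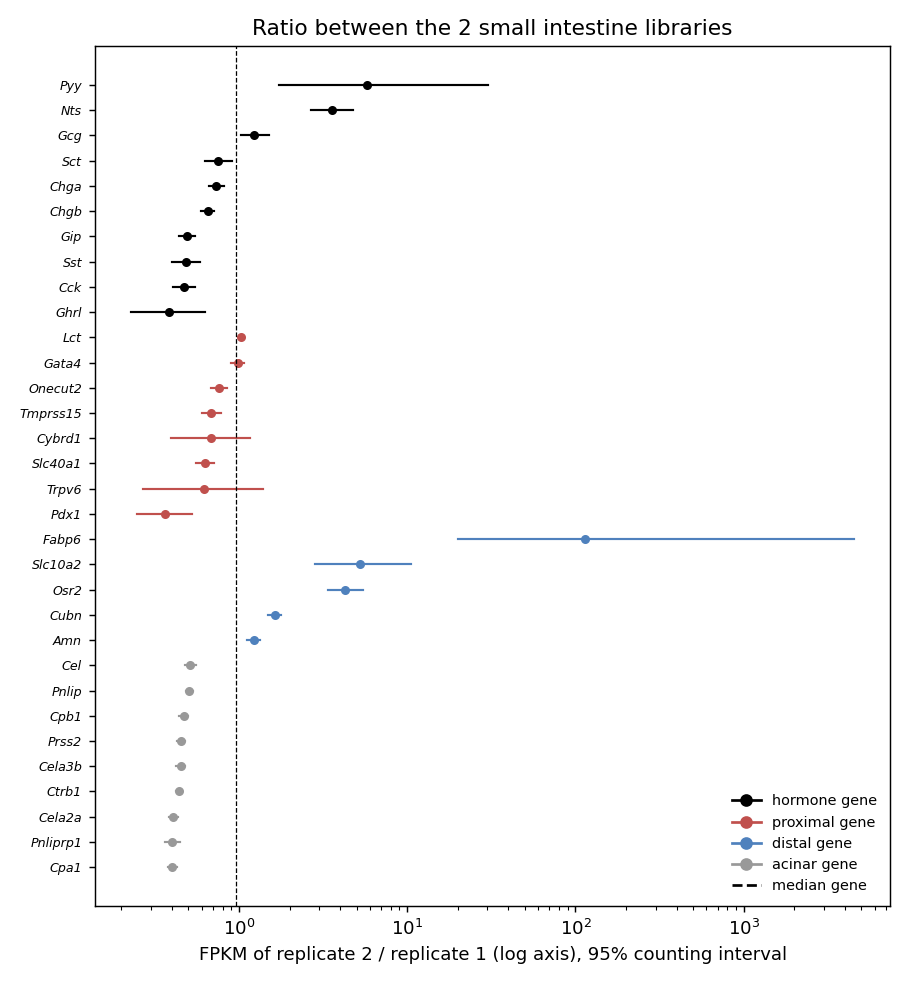
Ratio of the FPKM of small intestine replicate 2 to that of replicate 1 on a log axis, with 95% counting intervals, for hormone genes, upper and distal small intestine genes and pancreatic acinar genes with at least 1 read in both libraries. The dashed line is the median gene at 0.964, the distal genes all lie to its right, and Gip, Sst and Cck lie at 0.473 to 0.493, within the 0.403 to 0.515 of the acinar genes.

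The last values bear on islet RNA. Pancreatic acinar genes were in both small intestine libraries, and all 10 of the list were called higher there (background 13.7%). Their summed FPKM in replicate 2 was 0.452 times that in replicate 1, with single genes between 0.403 and 0.515, and Gip, Sst and Cck had ratios within that range. Ctrb1, chymotrypsinogen B, the highest, had 1009 and 446 FPKM. The islet genes were near the limit of detection in the same libraries. Ins2, which makes most insulin in the mouse islet together with Ins1, had 0.733 and 0.135 FPKM (9 and 2 reads), and Ins1 0.210 and 0. Iapp, amylin, had 0.987 and 0.725, and Ucn3 0.651 and 0.418 (9 and 7 reads). G6pc2, Slc30a8, Mafa and Nkx6-1 of the beta cell list, and Ppy, Irx1 and Irx2 of the alpha and PP cell list, were at 0 in both. None of the 8 beta cell genes passed the filter. With limma-voom on recovered reads 3 were tested and 2, Iapp and Ucn3, were called higher in small intestine, beside 19.5% of the 19966 genes in that fit. Both are also in the list of further gut peptide genes read below. Which cells their reads came from was not tested. The 8 genes summed to 2.58 and 1.28 FPKM in small intestine and to at most 0.331 in the other tissues.

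Against Ins2 in the same library, the ratio of Gcg per length was 17.9 in replicate 1 (95% counting interval 9.20 to 39.7) and that of Sst 74.7 (38.8 to 165). In replicate 2, where Ins2 had 2 reads, under the limit of 3, the ratios were 120 (33.0 to 998) for Gcg and 197 (53.8 to 1640) for Sst. The ratio of replicate 2 to replicate 1 was 1.24 for Gcg, 0.184 for Ins2 (0.0193 to 0.888) and 0.452 for the acinar sum. In an intact islet insulin transcripts are far more abundant than glucagon or somatostatin transcripts. Ttr and Hhex of the same list are also expressed in liver, and Ttr was at 3798 and 3699 FPKM in liver.

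**Figure D4:**
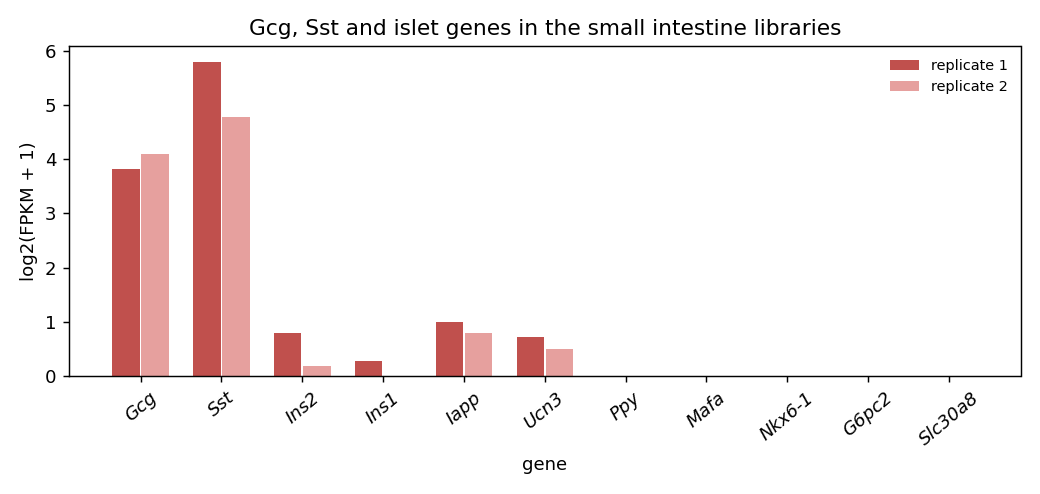
Level of Gcg, Sst and islet genes in the 2 small intestine libraries as log2(FPKM + 1), bars from 0. Gcg and Sst stand at 13.1 to 54.8 FPKM, and all 9 islet genes plotted lie under 1 FPKM, 5 of them at 0 in both libraries.

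Other genes of the enteroendocrine lineage were read in small intestine, some of them also at like or higher levels in the other tissues. The counts that follow are read beside the 13.7% of all genes tested that were called higher in small intestine, from which 1 of 3 or 1 of 4 cannot be told apart. As with the hormones, a low gene that reached 1 FPKM in small intestine alone entered the test only through the tissue where it was high, so these counts describe where the genes were detected. Of 11 transcription factors of the lineage, 4 passed the filter and 1, Neurod1, was called higher (1.49 and 1.52 FPKM, limma log2 difference 1.32, adjusted p = 3.62e-06). Neurog3, the factor that commits progenitors to the endocrine fate, had 0.766 and 1.002 FPKM in small intestine and 0 in all other libraries. Its ratio between the libraries was 1.31 (0.603 to 2.96), and that of Neurod1 1.02 (0.653 to 1.61), beside 0.473 to 0.493 for Gip, Sst and Cck. Insm1, Isl1 and Pax6 were also read outside the gut, with liver values of Pax6 at 1.064 and 1.3998.

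Of 13 genes of prohormone processing and granules, 9 were tested, 6 were called higher in small intestine (5 of them, all but Cpe, passed the filter through the small intestine alone) and Pam, which amidates peptides, was called lower. Scg2, secretogranin II, had 5.05 and 5.27 FPKM against at most 0.0640 elsewhere (limma log2 difference 2.60, adjusted p = 4.47e-07). Scgn, secretagogin, had 2.31 and 1.96 and was at 0 in the other 6. Pcsk1, the convertase that makes glucagon-like peptides and other gut peptides, had 1.32 and 1.58 with at most 0.219 elsewhere, and Pcsk2, the convertase that makes glucagon in the islet, had 0.162 and 0.0893. Without small intestine replicate 1, 5 of the 9 were called, and against the next highest tissue alone 4.

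Of 5 genes of enterochromaffin cells, which make serotonin, 2 of 3 tested were called higher: Tph1, tryptophan hydroxylase, with 2.70 and 1.96 FPKM, and Ddc with 61.9 and 51.5 beside 15.1 and 16.5 in kidney and 15.3 and 24.8 in liver. The third, the monoamine transporter Slc18a1, had 1.72 and 1.62 FPKM in small intestine and 26.7 and 18.1 in kidney, where it was called higher (limma log2 difference 3.71, adjusted p = 4.27e-06). Of 10 further peptide genes, 3 of 5 tested were called higher. They were Tac1 (2.55 and 2.65), Vip (5.53 and 5.97) and Gal (2.70 and 4.22), which enteric neurons also make. Gal was also called higher in lung, at 2.88 and 2.94 FPKM (limma log2 difference 1.24, adjusted p = 0.000162), and 2 of the 5 were called against the next highest tissue alone. Of 8 enteric neuron genes, 2 of 3 tested were called higher, Uchl1 and Prph (1 against the next highest tissue alone). With limma-voom on recovered reads all 7 of the neuron genes tested were called higher, beside 19.5% of all genes in that fit. The list sum was 8.94 and 9.26 FPKM in small intestine, up to 7.67 in lung and up to 1.45 in kidney, and its part in the Sst, Cck and Nts values was not tested. Of 9 nutrient receptors, 1 of 3 tested was called higher, Ffar2 at 2.22 and 1.61 FPKM, and it was called neither without small intestine replicate 1 nor against the next highest tissue alone. The other 2 were called higher in lung, Ffar4 at 10.4 and 7.86 FPKM (log2 difference 2.83) and Ffar1 at 2.13 and 1.99 (log2 difference 1.48).

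Sources in the other tissues were also read. In lung, where Nts and Ghrl had reads, the airway neuroendocrine genes Grp (2.61 and 2.89 FPKM) and Calca (1.22 and 0.956) were measured, and Resp18 had 0.0992 and 0.156. Calca was also read in kidney, at 0.692 and 0.583 FPKM, and Resp18 was called higher in small intestine. In kidney, adrenal medulla genes summed to 0.392 and 0.243 FPKM, with Th, Dbh and Pnmt at 0 in both libraries in which Cck was at 2.64 and 4.25.

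Of 17 listed receptor genes for these hormones, 4 passed the filter, each through tissues other than the small intestine, so that their higher levels elsewhere follow in part from the filter. None was called higher in small intestine by limma on log2(FPKM + 1), while limma-voom on recovered reads, which tested 10 of them, called 4 (19.5% of the 19966 genes in that fit were called). Gcgr, the glucagon receptor, had 101 and 111 FPKM in liver (limma log2 difference of liver 5.16) and 13.8 and 8.82 in kidney. Lung had 0.547 and 0.307, and small intestine 0.611 and 0.505. Cckar, the receptor for cholecystokinin on pancreas and gallbladder, had 19.7 and 17.2 in kidney and 17.2 and 18.8 in lung. In small intestine it had 1.25 and 0.456, and liver had 0.0593 and 0.0789. It was called higher in kidney and in lung, by 2.547 and 2.5001 on the log2 scale, and lower in small intestine, with -2.02.

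Glp1r, the receptor for glucagon-like peptide 1, had 4.57 and 6.96 FPKM in lung and 1.15 and 0.179 in small intestine, with at most 0.0315 elsewhere. Its lung value was called higher (log2 difference 2.503), as was that of Npy1r (3.88 and 2.70 FPKM, log2 difference 1.70), a receptor for peptide YY and neuropeptide Y. The 13 untested receptors were low in small intestine, at 0.759 FPKM or less, with Glp2r at 0.753 and 0.759 and Gipr at 0.368 and 0.152. Ghsr, the ghrelin receptor, was at 0 in all 8 libraries.

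**Figure D5:**
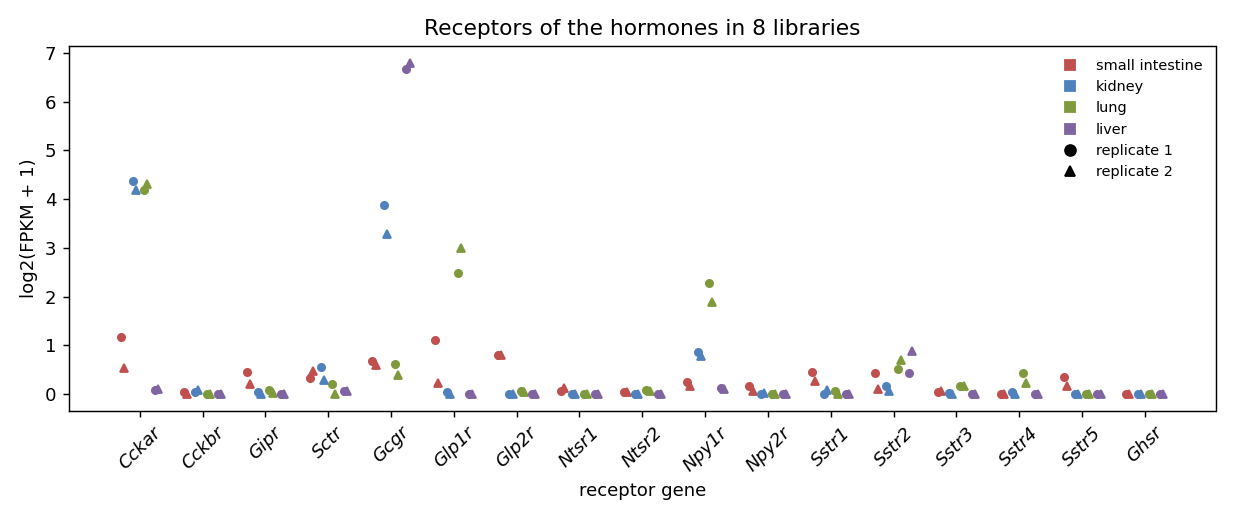
Level of 17 hormone receptor genes in every library as log2(FPKM + 1), with colours for tissues, circles for replicate 1 and triangles for replicate 2. Gcgr is highest in liver (101 and 111 FPKM), Cckar is near 17 to 20 FPKM in kidney and lung, and no receptor is highest in small intestine at more than 1 FPKM.

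Of 8 listed enzymes that activate or cut the peptides, 6 were tested and 4 were called higher in small intestine (background 13.7%). Anpep, aminopeptidase N of the brush border, had 845 and 1128 FPKM, Enpep 89.2 and 132, Dpp4, which inactivates the incretins, 48.2 and 79.8, and Mme, neprilysin, 37.2 and 38.5. Dpp4 was at 5.09 to 15.0 FPKM in the other libraries (limma log2 difference 2.46, adjusted p = 8.49e-05). The other tested enzymes were Ece1, with 14.9 and 11.4 FPKM in small intestine and 67.6 and 73.0 in lung, and Thop1, with 3.04 and 2.25 (limma adjusted p = 0.393). Fap was at 0.264 and 0.265, and Mboat4, which acylates ghrelin, was at 0.233 and 0.240.

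The genes whose log2(FPKM + 1) was most like that of each hormone over the 8 libraries were taken by Pearson's r, as a description. With 2 libraries high and 6 near 0, r separates mainly the tissue and the relative height of the 2, and 155 genes had an r of 0.99 or more with Gip, 189 with Chga, 204 with Gcg and 3 with Cck. For Gip the nearest were Mmp10, Gm44985 and Chgb, for Chga they were Cst6, Scgn and Gm37450, and for Gcg they were Apol10a, Npc1l1 and Ptprh. For Sst they were Nkx2-3, Tph1 and the acinar gene Cpa1 (187.7 and 75.5 FPKM). For Sct they were Gm5485, Mfsd4b2 and Olfr165, for Chgb Gm44985, Cst6 and Chga, and for Cck Mdh2, Fuom and Slc28a1. For Ghrl they were Pcsk1n, Gata5os and Avil. For Nts they included AI427809 (2.57 and 7.90 FPKM), and for Pyy they included Gm27149 and Fam83b. These 3 genes were higher in replicate 2.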

How the data were processed

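Bulk RNA sequencing of 4 mouse tissues, 2 libraries each, was analysed from the FPKM values the authors deposited for 52195 genes. Per the methods and the submitters' processing notes, the authors sorted reads with bbduk, aligned them to GRCm38 with STAR 2.5.3a and made the FPKM with DESeq2. The counting program and its use of strand are not given in the sources used here. FPKM corrects for length and library size, so abundant transcripts of 1 library lower the others. Reads were recovered as FPKM × exon length (GENCODE M21) over the worth of 1 read; 94.5% to 96.1% of values up to 50 reads were whole within 0.02. Sst was whole at 599 bases of exon, not the 721 annotated.

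Genes that reached 1 FPKM in 2 or more of the 8 libraries entered the test on log2(FPKM + 1) with limma 3.58.1 (trend, R 4.3.3; Python 3.11.15 for the rest), after the step was tested on simulated data. The pseudocount of 1 understates the change of low genes. Named genes were the 10 members, list genes with a mean FPKM of 1 or more in any tissue, and the 3 most alike per member. List genes under that level were named after their values were seen, to show that they were low. The members, lists and region comparison were chosen with earlier results of these data known. Alternatives changed the pseudocount, filter, scaling, trend, block, comparison, libraries and the base of the shares. The results of some listed or alike genes are not reported here.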

Additional observations from a re-analysis of the deposited data

How the results depend on the processing

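All 9 hormone genes tested were called higher in small intestine under every alternative run (10 of 10 with no filter on low values), and no direction changed. Leaving out each library in turn, with the genes of the full fit kept, gave 9 of 9 each time. That gene set was fixed after the data were seen: with the filter applied again to the 7 libraries left, Cck and Nts alone passed when either small intestine library was left out, and 2 of 2 were called. The number of genes called higher was 2244, and 3894 of 19966 (19.5%) with limma-voom on recovered reads, which was also chosen after seeing the data and tests more genes at low levels. With a pseudocount of 0.1 the number called higher was 3098. The number called lower was 1843, 2991 with a pseudocount of 0.1 and 2817 with limma-voom. Over the left-out libraries the number higher ran from 2145 to 2331. With limma-voom 5 of 9 lineage transcription factors, 11 of 12 processing genes, 4 of 5 enterochromaffin genes, 6 of 7 nutrient receptors, 4 of 10 hormone receptors, 5 of 8 further peptide genes, 7 of 7 enteric neuron genes and 2 of 3 beta cell genes were called higher. Iapp and Ucn3 count in both the further peptide list and the beta cell list. Against the next highest tissue alone the calls fell to 1 of 4 distal genes, 4 of 9 processing genes, 2 of 5 further peptide genes, 1 of 3 neuron genes, 0 of 3 nutrient receptors and 1 of 4 large intestine genes. The share of Gip was 32.9%, 28.003% to 36.02% by single library, 41.3% without Chga and Chgb in the sum, and 18.03% by reads, as the construction of each sum sets. With the replicate number as a block, 9 hormone genes and 2248 genes in all were called higher. The deviations of same-numbered libraries correlated at -0.217 to 0.053, which shows no pairing by number but does not exclude that same-numbered libraries share a mouse. With 2 libraries per tissue there was no test between the small intestine libraries and no search for outlying samples, and values under 3 reads were not detectable at this depth.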
